A study of Cucumis melo with 12 samples.

Results

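Of the 21691 melon (Cucumis melo) genes measured in leaves of the varieties 162 and 13-5A, 73 had a lower mean level after 12 h at 4 °C than at 0 h in 13-5A and a smaller difference, or none, in 162. They were chosen on the values described here. On the scale log2(FPKM + 1), where FPKM counts fragments relative to a gene's length and a library's total, each averaged 3 FPKM or more across the 12 libraries. Its mean in 13-5A at 12 h was lower than at 0 h by 1 or more, which is 2-fold in FPKM + 1. Its change in 162 lay above -1 and below 0.6, and exceeded that in 13-5A by 1 or more. The rule drew from 13186 genes of sufficient level, and its members are 0.554% of these.

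There were 4 groups of 3 leaf libraries each: 162 at 12 h, 162 at 0 h, 13-5A at 12 h and 13-5A at 0 h of 4 °C. Variety 162 is labelled tolerant of chilling and 13-5A sensitive. Since the labels list 4 °C for both times, taking 0 h as the moment before chilling is an assumption. No group stayed unchilled until 12 h, so an effect of 4 °C and one of elapsed time cannot be told apart, and neither the age of the plants nor the time of day is given. Whether the libraries of a group are different plants is not stated, and p-values reflect the spread of these libraries alone, part or all of which may be technical. The deposited table gives gene identifiers without names, and 0 of them matched the name table used here, so members are given by identifier, no role is assigned to any of them, and the leaf label was not checked against marker genes.

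Melon is a warm-season crop of tropical and subtropical origin. Cold above freezing stiffens its membranes, slows enzymes and lowers photosynthesis, and varieties differ in how well their leaves withstand it. The level of a messenger RNA is set by how fast it is made and how fast it decays. A lower level after chilling can come from either, and in whole leaves less RNA per cell and fewer cells of a type cannot be told apart.

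Library totals recovered from the values ran from 41299369 to 45355323 reads. A value of 1 FPKM stood for about 72.7 reads in a gene of 1645 bases, the median length, and the member with the fewest reads still had 12 in its lowest 13-5A library at 12 h. Within groups, libraries correlated at 0.95 to 0.987 across the 15592 genes tested, those averaging 1 FPKM or more.

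In 13-5A the 73 members together made up 0.193% ± 0.0177 of all FPKM at 12 h, against 0.567% ± 0.0602 at 0 h (SD, n = 3 each). In 162 they made up 0.375% ± 0.0937 at 12 h and 0.396% ± 0.0848 at 0 h. The direction in 13-5A follows from the choice of genes. A member's median log2 difference between 12 h and 0 h in 13-5A was -1.61, with quartiles of -1.99 and -1.25. The value was -2 or lower, a 4-fold loss of FPKM + 1, in 18 members, between -2 and -1.5 in 25, and above -1.5 in 30. By limma with Benjamini-Hochberg adjustment, 69 of the 73 fell in 13-5A, where 9.06% of all tested genes fell. The rule used this contrast, so the count is a description. The libraries of 13-5A at 12 h lay wholly below those at 0 h in 69 members and overlapped in 4. The rule used this difference too, and separation was not counted over all genes, so these counts are also descriptions.

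MELO3C011987.2 showed the lowest 13-5A difference. It stood at 1.49, 3.79 and 3.08 FPKM in 13-5A at 12 h, against 39.6, 44.2 and 47.7 FPKM at 0 h. All libraries at 12 h were far below all libraries at 0 h, with a log2 difference of -3.61 (SE 0.21). In 162 the same gene was under 1 FPKM in every library, at 0.0684, 0.163 and 0.0984 FPKM at 12 h and 0.766, 0.548 and 0.929 FPKM at 0 h. These are 23 reads over the 3 libraries at 12 h, against 161 at 0 h. The log2(FPKM + 1) difference in 162 was only -0.65 (SE 0.21), but with a pseudocount of 0.1 it was -2.01 (SE 0.32), and the gene then no longer met the rule.

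MELO3C002247.2 followed, at 2.85, 3.83 and 5.47 FPKM in 13-5A at 12 h, against 36.3, 42.9 and 55.3 FPKM at 0 h. In 162 it stood at 5.11, 4.7 and 7.61 FPKM at 12 h, against 14.1, 11.7 and 9.07 FPKM at 0 h. Times did not overlap in either variety, and the log2 differences were -3.19 (SE 0.24) in 13-5A and -0.90 (SE 0.24) in 162. At 12 h the varieties overlapped, while at 0 h every 13-5A library was above every 162 library.

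The fall was spread over many members. The 5 that lost the most FPKM in 13-5A accounted for 31.5% of the summed loss, and the one that lost the most for 10.02%. MELO3C033305.2 was the most abundant member, at 290, 146 and 335 FPKM in 13-5A at 12 h, against 523, 464 and 523 FPKM at 0 h. In 162 it varied from 474 to 1092 FPKM at 12 h and from 504 to 1025 FPKM at 0 h, with the times overlapping. MELO3C005744.2, the next most abundant, stood at 85.4, 77 and 103 FPKM in 13-5A at 12 h, against 255, 192 and 298 FPKM at 0 h. In 162 it stood at 127, 103 and 77.3 FPKM at 12 h, against 161, 122 and 119 FPKM at 0 h, a small difference with overlap. Without MELO3C033305.2 the other members made up 0.153% ± 0.00614 of FPKM in 13-5A at 12 h, against 0.49% ± 0.0548 at 0 h.

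**Figure D1:**
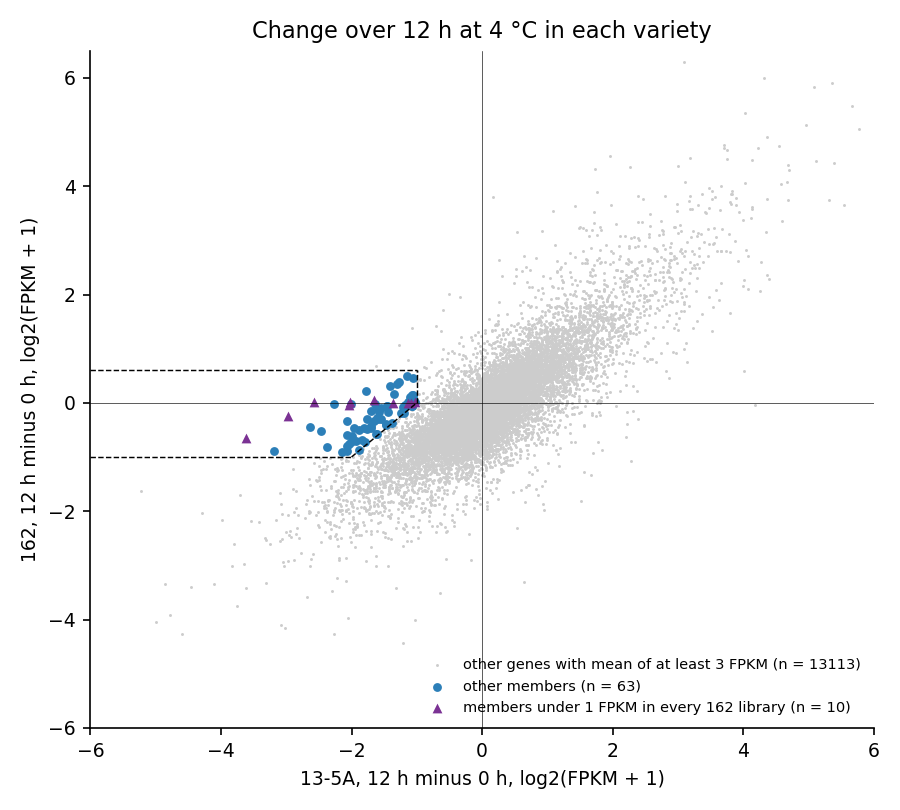
Change over 12 h at 4 °C in 13-5A (x axis) and 162 (y axis), both as 12 h minus 0 h on the scale log2(FPKM + 1), for genes averaging 3 FPKM or more. Grey points are other genes, blue points 63 members, purple triangles the 10 members under 1 FPKM in every 162 library, and dashed lines bound the membership rule. Most triangles lie close to 0 on the y axis.

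In 162 the members' median difference was -0.18, with quartiles of -0.49 and 0.00108. It lay at -0.5 or lower in 17 members, between -0.5 and 0 in 37, and above 0 in 19. No member was called in 162 by limma in either direction (0 of 73), where 10.6% of all tested genes fell and 9.24% rose. The rule had bounded these values on both sides. At an unadjusted p under 0.05, 16 members differed, all lower at 12 h. Voom on the recovered reads called 3, where it called 2218 of the 15592 tested genes lower and 1643 higher in 162 at 12 h. Without the 2-fold minimum 15 members fell and 0 rose by limma's adjusted p. The shares of all genes without that minimum were not taken, so nothing is read from the 16 and the 15. With the 2-fold minimum, the limma count in 162 became 3 without replicate 3 of 162 at 12 h. It became 1 when replicate 2 or replicate 3 of 162 at 0 h was dropped. Over all tested genes 1626 were called lower in 162 in the first of these fits. In the others 1849 and 1619 were.

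MELO3C012321.2 had the lowest 162 value among the members, -0.91 (SE 0.14). It stood at 11.3, 13.2 and 14.2 FPKM in 162 at 12 h, against 23.2, 24.9 and 27.4 FPKM at 0 h. In 13-5A it stood at 5.27, 5.44 and 5.68 FPKM at 12 h, against 33.7, 24.8 and 25.2 FPKM at 0 h. The varieties overlapped at 0 h and the times did not overlap in either variety. The gene was lower in both, by a log2 difference of -2.15 (SE 0.14) in 13-5A.

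At the upper end stood MELO3C030339.2 and MELO3C022436.2, with 162 differences of 0.50 (SE 0.43) and 0.46 (SE 0.51). MELO3C030339.2 had 11.9, 12.5 and 14.8 FPKM in 162 at 12 h, against 6.26, 9.49 and 11.7 FPKM at 0 h. Its 13-5A libraries had 15.4, 9.8 and 4.7 FPKM at 12 h, against 23.9, 10.3 and 38 FPKM at 0 h. The 13-5A times overlapped, although the means differed by a log2 value of -1.15 (SE 0.43). MELO3C022436.2 was also uneven, at 36.8, 36.3 and 48.1 FPKM in 13-5A at 12 h, against 85.4, 164 and 43.2 FPKM at 0 h. One 0 h library lay within the 12 h range.

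In 10 of the 73 members, 13.7%, every 162 library was under 1 FPKM. Over all genes of at least 3 FPKM the same held for 38 genes, or 0.288%. Of these 38, 10 had a 13-5A difference of -1 or lower, all of them members, and 2 had one of 1 or more. Of the 10, 9 had at most 10 reads over the 6 libraries of 162, and 2 of these had 0, too few for a change in 162 to show on this scale. The exception is MELO3C011987.2, whose 23 reads at 12 h against 161 at 0 h gave a log2 difference in 162 of -2.75 (SE 0.71) by voom. The means of the 10 genes in 13-5A ran from 1.3 to 33.5 FPKM at 12 h, against 13 to 107 FPKM at 0 h. A failure of 162 reads to map there was not tested.

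MELO3C032345.2 and MELO3C031806.2 were the most abundant of this kind. MELO3C032345.2 had 2, 1 and 1 reads in the libraries of 162 at 12 h and 0 reads at 0 h. In 13-5A it stood at 36.2, 35.2 and 29.1 FPKM at 12 h, against 106, 113 and 103 FPKM at 0 h. MELO3C031806.2 had 0 reads in 162 at 12 h, so with 3 reads per library as the floor it was at least 88.1-fold lower in 162 than in 13-5A at that time. Its 13-5A values were 27.1, 15.4 and 32.5 FPKM at 12 h, against 114, 91.3 and 99.4 FPKM at 0 h. Floors cover counting error only. MELO3C026565.2 had 0 reads in 162 at 12 h, against 4, 3 and 0 reads at 0 h. It stood at 1.46, 1.04 and 1.39 FPKM in 13-5A at 12 h, against 17.7, 15.1 and 18.2 FPKM at 0 h. Together with MELO3C011987.2 it had the largest excess of the 162 change over the 13-5A change, 2.72 (SE 0.21) against 2.96 (SE 0.29). Both were the 2 members that left the rule with a pseudocount of 0.1.

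The rule fixes that 162 minus 13-5A is greater at 12 h than at 0 h by 1 or more, but not where the pair of values lies. Over the members the median of 162 minus 13-5A was 0.37 at 12 h and -0.999 at 0 h, beside 0.07 and 0.24 over all tested genes. At 12 h every 162 library was above every 13-5A library in 27 members and below in 16. At 0 h it was above in 6 and below in 46. Such separation was not counted over all genes, so nothing is read from these counts. By limma, 16 members were called higher and 13 lower in 162 at 12 h, where 4.97% and 2.92% of all genes were. At 0 h, 4 were called higher and 35 lower, where 11.7% and 3.08% of all genes were. The rule partly used both contrasts, so these counts are descriptions. In 42 members 162 was the higher variety at 12 h and the lower at 0 h. The rule favours such a crossing, which was not counted over all genes, so nothing is read from the 42.

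**Figure D2:**
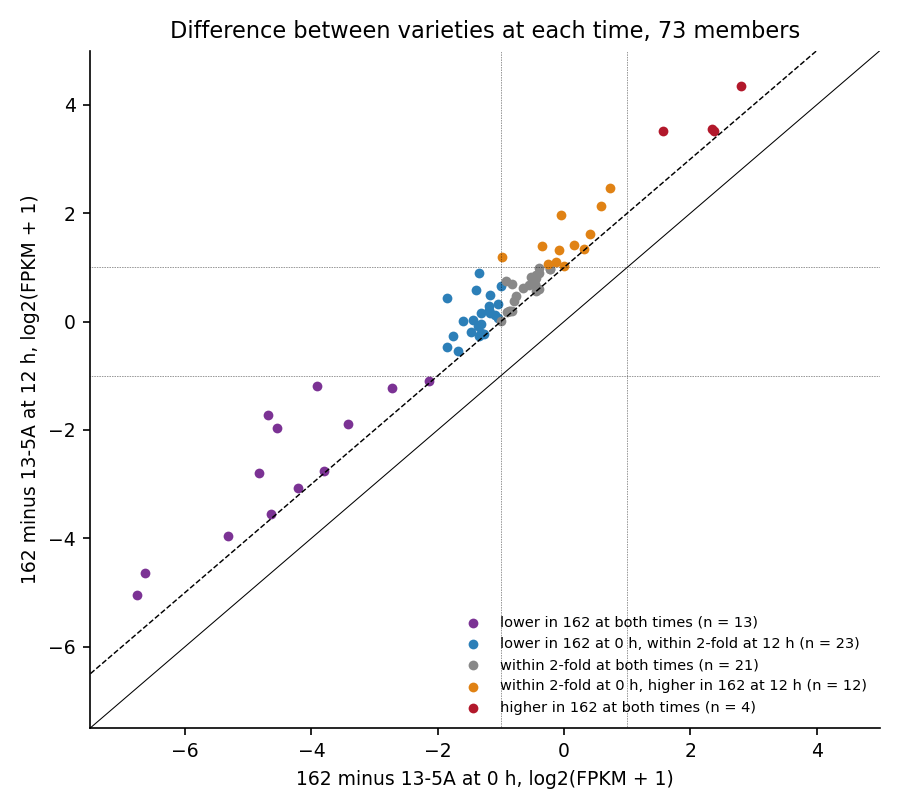
Difference between varieties (162 minus 13-5A) at 0 h (x axis) and 12 h (y axis) on the scale log2(FPKM + 1), one point per member. The solid line marks equal differences, the dashed line the margin of 1 set by the rule, and dotted lines 2-fold. The largest group, 23 members, was lower in 162 at 0 h and within 2-fold at 12 h.

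Divided at 2-fold in FPKM + 1, a limit chosen after the values were seen, the members form 5 groups. Genes within 2-fold by this measure can differ by more in FPKM itself, most of all at low levels. In 23 members 162 was 2-fold or more below 13-5A at 0 h and within 2-fold of it at 12 h. The median of their group means was 10.9 FPKM in 162 at 12 h and 11.6 FPKM in 162 at 0 h. In 13-5A it was 9.79 FPKM at 12 h and 33.5 FPKM at 0 h. MELO3C003294.2, named as the most abundant of the 23, stood at 93, 63.2 and 42.9 FPKM in 162 at 12 h and 62.1, 53.6 and 78.2 FPKM at 0 h. In 13-5A it stood at 39.1, 77.5 and 80.2 FPKM at 12 h, against 189, 194 and 205 FPKM at 0 h. The 3 libraries of 13-5A at 0 h were above the other 9, which overlapped.

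In 12 members the varieties were within 2-fold at 0 h and 162 was 2-fold or more higher at 12 h. The median of their group means was 13.8 FPKM in 162 at 12 h and 19.1 FPKM at 0 h. In 13-5A it was 5.49 FPKM at 12 h and 20.9 FPKM at 0 h. Their 162 minus 13-5A values ran from 1.02 to 2.46 at 12 h and from -0.99 to 0.72 at 0 h on the log2 scale. MELO3C012321.2 and MELO3C033305.2, described above, belong to these. In a further 21 members the varieties stayed within 2-fold at both times. Their medians were 15.7 FPKM in 162 at 12 h and 18.9 FPKM at 0 h, with 7.91 FPKM in 13-5A at 12 h and 29.1 FPKM at 0 h. The rule then fixes that 162 is the higher variety at 12 h and the lower at 0 h, and MELO3C005744.2 is among them.

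The remaining members differed between varieties at both times. In 13 members 162 was 2-fold or more lower at both, and 10 of these are the genes under 1 FPKM in 162. The other 3 include MELO3C022436.2, at 19.3, 3.9 and 12.5 FPKM in 162 at 12 h and 7.11, 9.89 and 4.89 FPKM at 0 h, below every 13-5A library. In 4 members 162 was 2-fold or more higher at both times, with medians of 124 FPKM in 162 at 12 h and 137 FPKM at 0 h, and of 9.12 FPKM in 13-5A at 12 h and 28.5 FPKM at 0 h.

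MELO3C027040.2 is one of these 4, at 347, 126 and 236 FPKM in 162 at 12 h and 218, 362 and 183 FPKM at 0 h. In 13-5A it stood at 14.9, 7.53 and 8.35 FPKM at 12 h, against 33.2, 32.5 and 36.6 FPKM at 0 h. The lowest 162 library was above the highest 13-5A library, and in 162 the times overlapped. MELO3C012701.2 had 249, 71.5 and 121 FPKM in 162 at 12 h and 116, 172 and 87.1 FPKM at 0 h. In 13-5A it had 20.7, 5.63 and 8.36 FPKM at 12 h and 23.5, 25.4 and 19.8 FPKM at 0 h. Its 13-5A times overlapped, and it is one of the 4 members not called in 13-5A.

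**Figure D3:**
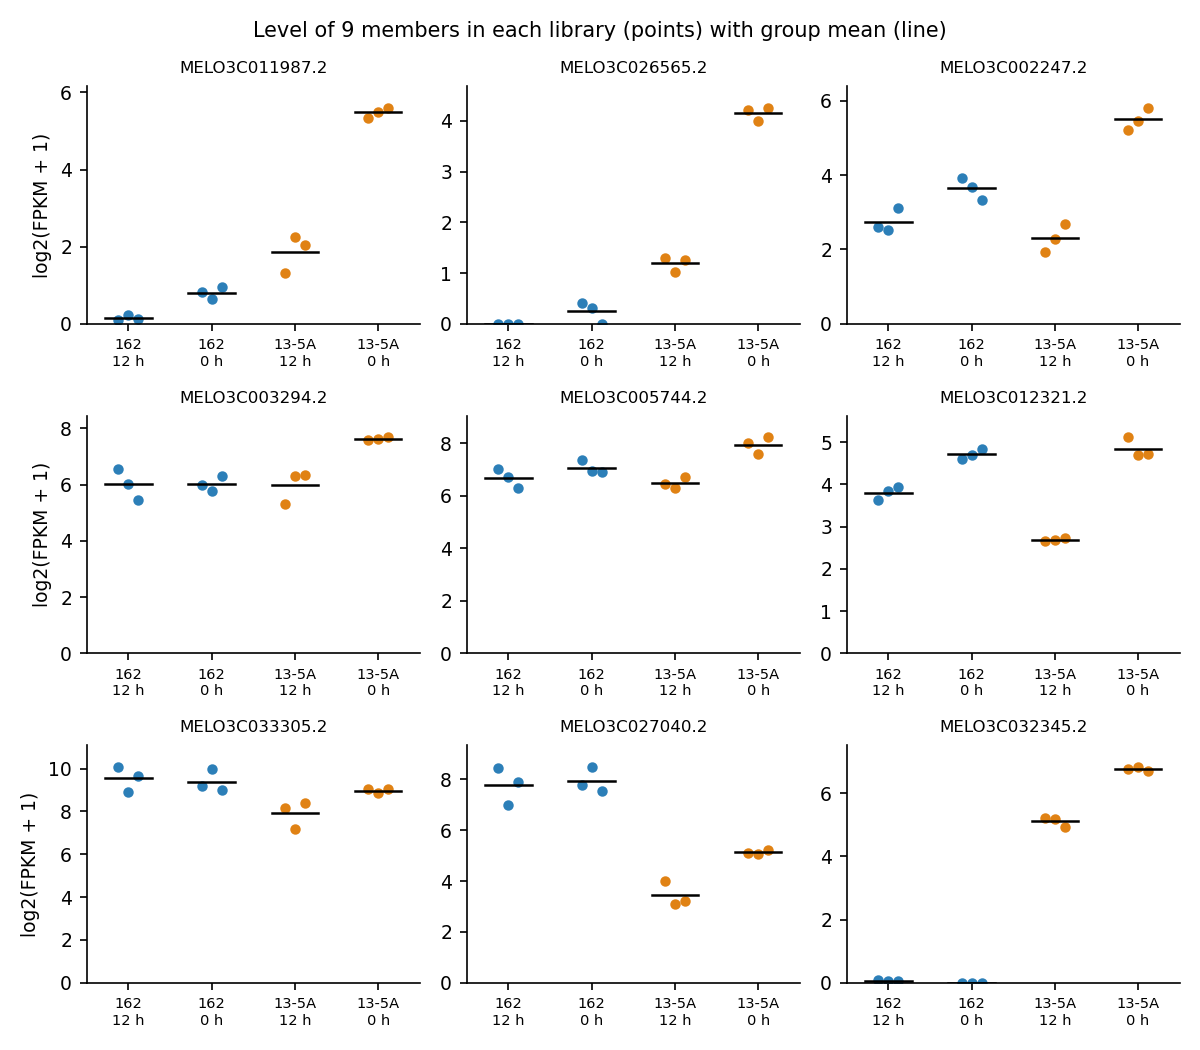
Level of 9 members as log2(FPKM + 1) in each library, with 162 in blue, 13-5A in orange and a black line at the group mean. MELO3C003294.2 is high in 13-5A at 0 h alone, MELO3C012321.2 is lowest in 13-5A at 12 h, and MELO3C032345.2 is near 0 in all 6 libraries of 162.

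The difference between varieties averaged over both times is the one contrast of group means that the rule did not use, since with equal error in each library it is orthogonal to both changes over time. This does not hold for the 10 genes under 1 FPKM in 162, which reached 3 FPKM through 13-5A alone and whose 162 change the pseudocount holds down, so their difference was fixed by how they were chosen. By limma 7 of 73 members were higher in 162 and 16 lower, where 7.25% and 2.37% of all tested genes were higher and lower. Those 10 genes are among the 16, and nothing is read from the counts over all 73. Over the other 63 members 7 were higher, or 11.1%, and 6 were lower, or 9.52%. The median over the 73 members was -0.34, beside 0.15 over all tested genes, and -0.18 without those 10. With median-ratio scaling 6 members were higher and 19 lower, and over all genes 734 were higher and 578 lower in place of 1130 and 370.

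MELO3C027040.2 and MELO3C012701.2 had the most positive averaged differences that were called, 3.57 (SE 0.25, limma adjusted p = 6.31e-07) and 2.96 (SE 0.33, adjusted p = 2.56e-05). All 6 libraries of 162 were above all 6 of 13-5A for both. MELO3C032345.2 and MELO3C031806.2 had the most negative, -5.90 (SE 0.08) and -5.63 (SE 0.15), with 162 lower in 6 of 6 libraries. Both were under 1 FPKM in every 162 library, so their difference was fixed by how they were chosen. Their values are descriptions, and no p-value is given for them. MELO3C022436.2 was lower in 162 by -2.65 (SE 0.36, adjusted p = 0.000115). MELO3C033305.2 was higher in 162 by 1.02 (SE 0.26, limma adjusted p = 0.00707), just past the 2-fold minimum. It lay under that minimum with equal totals, at 0.99, and with median-ratio scaling, at 0.80. It did so too, at 0.83 to 0.99, when replicate 1 or 3 of 162 at 12 h, replicate 2 of 162 at 0 h, replicate 2 of 13-5A at 12 h or replicate 2 of 13-5A at 0 h was left out. MELO3C002247.2, MELO3C012321.2, MELO3C005744.2 and MELO3C030339.2 were not called, at -0.71, 0.49, -0.34 and -0.34.

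**Figure D4:**
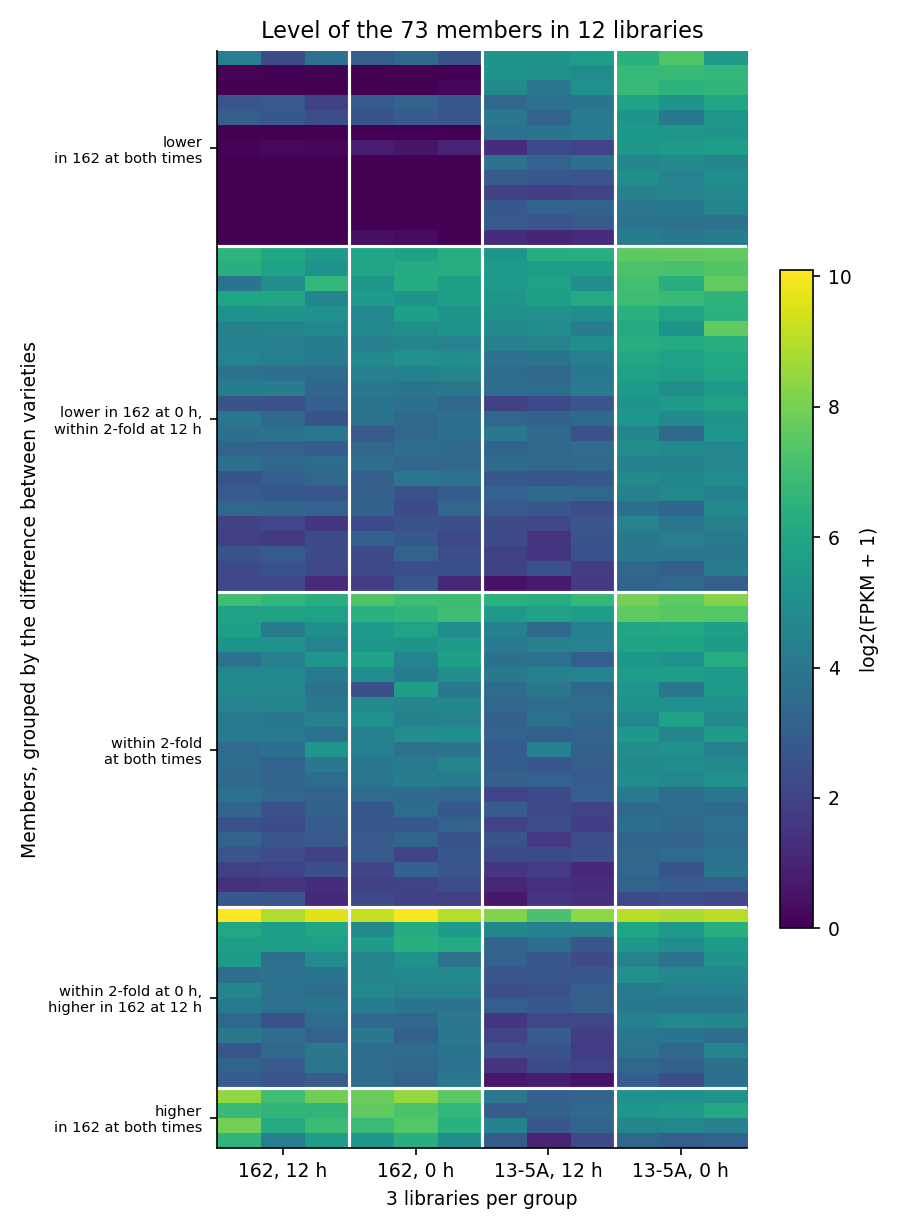
Level of the 73 members as log2(FPKM + 1) in the 12 libraries, 3 per group, with members grouped by the difference between varieties and sorted by mean FPKM within a group. In the top block 10 genes are dark in all 162 libraries, and in the second block, of 23 genes, 13-5A at 0 h is brighter than the other groups.

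The mirror set, chosen by the same limits with the varieties exchanged, held 191 genes that fell mainly in 162, and 806 genes were lower by 2-fold or more in both varieties. For the averaged difference between varieties, 31.9% of the mirror set were called higher in 162 and 2.62% lower. Mirror genes under 1 FPKM in every 13-5A library were not counted or set aside, so nothing is read from these shares. Of the genes lower in both, 2.98% were called higher in 162 and 6.95% lower. The 73 members had a median level of 16 FPKM, the mirror set 16.1 FPKM and all genes of at least 3 FPKM 15.5 FPKM. By level, 22 members averaged under 10 FPKM, 41 from 10 to under 50 and 10 at 50 or more, which is 30.1%, 56.2% and 13.7%, beside 33.9%, 48.5% and 17.5% of all such genes. Their median length was 1409 bases, and 656.5 bases for the 10 under 1 FPKM in 162, beside 1659.5 bases for all such genes. The number of genes in each one-sided set depends on scaling. Median-ratio scaling gave 139 genes falling mainly in 13-5A, with 72 of the 73 members among them, and 88 falling mainly in 162. It moved the median over all tested genes of the 162 change minus the 13-5A change to 0.01, against -0.16 as deposited.

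The change in 162 exceeded that in 13-5A by a median of 1.30 over the members, with quartiles of 1.14 and 1.56, by the rule. The interaction test of limma called 39 of 73, where 1.04% of all tested genes were called in that direction. The rule used this contrast, and nothing is read from the count. The count was 25 when replicate 2 of 162 at 12 h was left out. Over all tested genes 97 were then called in that direction, in place of 162 genes. Leaving out a 12 h library of 13-5A gave 22 for replicate 1 and 25 for replicate 2, and 88 and 114 over all genes. Leaving out a 0 h library of 13-5A gave 20 for replicate 1 and 24 for replicate 3, and 72 and 95 over all genes. Voom on the recovered reads called 24, and 112 over all genes.

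At the median, libraries of a group spread more in the members than over all tested genes. The median SD within groups was 0.34 on the log2 scale over the members, 0.36 in the mirror set and 0.23 over all tested genes. It was 0.26 in the genes lower in both varieties and 0.155 in the 10 members under 1 FPKM in every 162 library. The lower quartile over the members was 0.21. A rule on means of 3 libraries favours variable genes, and how far it did so was not tested. Within 13-5A at 0 h the members averaged 0.0161, -0.164 and 0.148 from their group mean in replicates 1, 2 and 3, so replicate 2 was low and replicate 3 high. The same averages over all genes of at least 3 FPKM were -0.0219, -0.019 and 0.0409. Within 162 at 12 h the members averaged 0.135, -0.1 and -0.0351, with replicate 1 high. When the rule was applied again without each library in turn, 59 to 68 of the 73 members met it each time. With group medians in place of means 86 genes met it, 55 of the 73 members among them. All 12 repeats were met by 33 members and at least 11 by 53, and the least stable member met 5. MELO3C011987.2, MELO3C026565.2, MELO3C003294.2, MELO3C012321.2 and MELO3C027040.2 met all 12. MELO3C005744.2, MELO3C022436.2 and MELO3C012701.2 met 8.

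Several members lie close to the limits. The nearest members inside the limit on the 13-5A change had -1.031 and -1.032, and the nearest genes outside it -0.998 and -0.991. For the excess of the 162 change the nearest inside were 1.007 and 1.007 and the nearest outside 0.9999 and 0.984. In 14 members this excess was under 1.1, and 13 further genes that met the other limits had 0.9 to 1. Only 4 genes had a 13-5A change of -1 or lower and a 162 change of 0.6 or more, the nearest of them at 0.68 in 162.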

How the data were processed

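The authors deposited one table of FPKM for 21691 genes. Per the labels' protocols, TRIzol was used for RNA extraction, and VAHTS Universal V6 libraries were read as paired ends on an Illumina NovaSeq. The aligner, counter, build and annotation used by the submitters are not given in the labels or the file. Column names equal the sample descriptions in the labels, leaving 0 columns unassigned. Of the identifiers, 0 matched the RefSeq gene table at hand, so the planned gene lists and marker checks were not run and no sequence is shown.

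FPKM were taken as log2(FPKM + 1), a scale that understates changes of low genes. The 15592 genes averaging 1 FPKM or more entered a fit by limma 3.58.1 (R 4.3.3) with an intensity trend, 4 groups and 8 residual degrees of freedom. A call needs a log2 difference of at least 1 in size and a Benjamini-Hochberg adjusted p under 0.05, adjusted over all tested genes. The 73 members and all lists were chosen with earlier results of these data known. Named members are at most 2 each with the lowest 13-5A change free of overlap, the largest excess of the 162 change, the highest mean, the highest and lowest 162 change, and the most positive and most negative called averaged variety difference. MELO3C003294.2 and MELO3C012702.2 were added after their values were seen. Other steps ran in Python 3.11.15 (numpy 2.4.6, pandas 2.3.3) and figures in matplotlib 3.10.9.

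Whole reads were recovered from the FPKM by solving for gene lengths and library totals; in tested genes 100% of values were whole to within 0.001. A recovered read may be a read or a pair. No library repeats another: chi-square per gene between libraries of a group was 37.6 to 263. Tested on simulated data over 15592 genes, the averaged variety difference was recovered for 92% of 100 genes changed 3-fold. At 6-fold 97% of 100 were recovered, and 0 unchanged genes were called.

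Alternatives changed the pseudocount (0.1), the filter (none, or a mean of 5 FPKM), the scaling (equal totals or median ratio), the trend, the fold minimum, the libraries fitted (compared groups alone, or all but one), the block (replicate number), the model (limma voom on recovered reads) and, in the rule, medians in place of means. Leaving out the members under 1 FPKM in 162 was chosen after seeing the data.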

Additional observations from a re-analysis of the deposited data

Results flagged for a closer look

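The interaction test of limma, on whether the change over 12 h at 4 °C differed between 162 and 13-5A, called 39 of the 73 members. This is why they are listed. Over all tested genes 1.04% were called in that direction. The membership rule chose on this difference, so nothing is read from the count. The 39 include all 10 members under 1 FPKM in every 162 library, of which 9 had too few reads for a change in 162 to show. Of the other 63 members 29 were called. Among the named members the interaction, as the 162 change minus the 13-5A change, was 2.96 for MELO3C011987.2, 2.72 for MELO3C026565.2 and 2.30 for MELO3C002247.2. It was 1.99 for MELO3C031806.2, 1.72 for MELO3C032345.2 and 1.24 for MELO3C012321.2. Of these genes, MELO3C011987.2, MELO3C026565.2, MELO3C031806.2 and MELO3C032345.2 were under 1 FPKM in every 162 library. With voom on the recovered reads the interaction was 1.31 (SE 0.76) for MELO3C011987.2 and 1.72 (SE 1.06) for MELO3C026565.2. It was 1.58 (SE 1.35) for MELO3C031806.2 and 3.55 (SE 0.85) for MELO3C032345.2.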

How the results depend on the processing

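The alternatives gave 588 values. Of these, 562 kept their call, their count to within 1.5 times or their value to within the spread, 19 moved, and 7 lost a call, each of the 7 for MELO3C033305.2. Without the fold minimum, by construction, 13 members were higher and 32 lower in 162 for the averaged variety difference, and 15 were lower in 162 at 12 h than at 0 h. The matching shares of all genes were not taken. With the 2-fold minimum kept, the members called lower in 162 at 12 h numbered 0 in the main fit. They numbered 2 with a pseudocount of 0.1 and 3 with voom, and voom called 24 interactions. Over all tested genes 1654 were called lower in the main fit, 2154 with that pseudocount and 2218 with voom. Voom called 112 interactions over all tested genes in the members' direction. With median-ratio scaling 139 genes met the rule, and the members' median difference between varieties was -0.53 averaged over times and -1.28 at 0 h. Without the members under 1 FPKM in 162, by construction, 6 were lower for the averaged difference and 3 at 12 h. For values not marked as by construction, the cause was not tested. With 1 library left out, interactions numbered 20 to 44, falls in 13-5A 61 to 71, falls in 162 0 to 3, and genes meeting the rule 69 to 88. Over all 15592 tested genes, interactions in the members' direction then numbered 72 to 182. Falls over all tested genes numbered 1329 to 1450 in 13-5A and 1581 to 1849 in 162. For the averaged difference 6 to 8 members were then higher and 15 to 17 lower, beside 1049 to 1242 and 357 to 404 of all tested genes. Same-numbered replicates were not treated as paired. Over 18 such pairs the deviations correlated from -0.31 to 0.31 and 2 exceeded 0.1, which cannot show whether they were paired at sampling. With the replicate block there were 28 interactions and again 7 and 16 calls for the averaged difference. Over all tested genes 115 interactions were then called in the members' direction, in place of 162 genes. Depth limits the 9 members with at most 10 reads in 162.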

Other observations

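MELO3C012701.2 and MELO3C012702.2 carry consecutive identifiers and had like profiles, and their positions were not used here. MELO3C012702.2 is named after its values were seen. MELO3C012702.2 stood at 95, 19.2 and 49 FPKM in 162 at 12 h and 40.4, 81.2 and 32 FPKM at 0 h. In 13-5A it stood at 6.16, 0.957 and 3.67 FPKM at 12 h and 9.71, 7.3 and 8.07 FPKM at 0 h. For both genes, and for MELO3C027040.2 and MELO3C033305.2, replicate 1 was the highest and replicate 2 the lowest of the 162 libraries at 12 h. Replicate 2 was the highest of the 162 libraries at 0 h.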
